A study of Mus musculus with 6 samples.

Results

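The Ighv8 genes, also called the 3609 family, are a family of immunoglobulin heavy chain V genes that lies among the distal V genes of the mouse locus. They were followed here in VDJ-seq libraries, in which rearranged heavy chain genes are captured from genomic DNA through their J segment, so that each sequence counts a DNA molecule whether or not it is transcribed. Members were all sequences whose first V gene call, with the allele removed, is an Ighv8 gene. There were 12651 of them among 228609 sequences (5.53%), under 13 gene names. The RefSeq annotation of GRCm38.p6, the build the files use, holds 12 of these names and lists 16 Ighv8 genes in all, of which 4 had no sequence.

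All DNA came from the spleens of C57BL/6 mice, 12 weeks old, in which B cells had been enriched on magnetic columns by removing other cells with 4 biotinylated antibodies. The study varied the amount of starting DNA in 4 libraries (500 ng, 1 µg, 2.5 µg and 5 µg) and the DNA polymerases in 2 further libraries, labelled Q5_vent and Q5_Q5 after the enzymes Q5 and Vent. No mouse carries a transgene or receives an agent, as far as the labels say. Each group is 1 library and nothing states whether libraries share a mouse or a DNA extract. P-values taken over the 6 libraries therefore cover no spread beyond that between these libraries, which may be technical. Those from limma, the linear model test used below, also draw on a variance shared over all genes or families of a fit. A small limma p-value is thus not a measure of the spread of 1 gene alone. The files hold DNA joins and no expression, so the B cell label was not checked on marker genes. From the lowest to the highest input the libraries held 8704, 17055, 56006 and 112320 sequences, and Q5_vent and Q5_Q5 held 19490 and 15034. Confidence intervals printed below are at 95%, by the Wilson method for a share, and cover counting error only.

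A heavy chain gene is assembled in 2 steps, a D segment to a J segment and then a V segment to the DJ join. Bases are trimmed from and added to the ends at each junction, so the reading frame of a join is set largely by chance. A join is productive when V and J are in the same frame and no stop codon interrupts them. A B cell survives on 1 productive allele, and the other allele can keep an out-of-frame join that makes no chain. Out-of-frame joins are therefore commonly read as V gene use before selection of the protein, and productive joins as use after it. The cysteine codon just before the third complementarity-determining region (CDR3) supplies a residue of the disulphide bond that holds a V domain together.

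The last bases of the germline V segments are shown first, because the cysteine codon and the start of CDR3 lie there. Each was read from deposited germline alignments of sequences without a mismatch, runs to the last base of the reference that the files align to, and has the codon at the cysteine place in capitals.
Ighv8-8: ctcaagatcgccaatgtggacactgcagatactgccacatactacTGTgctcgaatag
Ighv8-12: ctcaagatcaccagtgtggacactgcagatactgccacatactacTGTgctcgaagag
Ighv8-5: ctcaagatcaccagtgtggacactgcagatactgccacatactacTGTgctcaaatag
Ighv8-11: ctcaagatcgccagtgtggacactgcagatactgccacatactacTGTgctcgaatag
Ighv8-4: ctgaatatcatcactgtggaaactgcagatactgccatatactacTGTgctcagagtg
Ighv8-7: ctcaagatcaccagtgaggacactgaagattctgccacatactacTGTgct
Ighv8-9: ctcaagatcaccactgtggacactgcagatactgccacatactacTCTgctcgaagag
Ighv8-2: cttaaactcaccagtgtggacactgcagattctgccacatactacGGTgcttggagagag
The codon is TGT, a cysteine codon, in 6 of these segments, and also in Ighv8-6, whose segment is not printed. It is GGT in Ighv8-2, through the substitution T289G, and TCT in Ighv8-9, through G290C, where positions count from the first V base of Ighv8-8 and the Ighv8-8 base is written first. The deposited CDR3 of Ighv8-2 joins starts 1 codon later than that of the other genes, so its CDR3 lengths are 3 bases shorter by construction.

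Ighv8 joins were split unevenly between the classes. Productive joins numbered 8811, out-of-frame joins 3223 and in-frame joins with a stop codon 617. Productive joins made up 67.0%, 67.1%, 69.3% and 70.4% of Ighv8 sequences from the lowest to the highest input, and 68.0% and 71.1% in Q5_vent and Q5_Q5. In each library this was below the 72.9% to 74.1% of the other V genes. The family held 5.26% of all productive and 6.33% of all out-of-frame joins. Its log2 ratio of the productive over the out-of-frame share was -0.27 (SE 0.031, below 0 in 6 of 6 libraries, adjusted p = 9.9e-13 by limma with Benjamini-Hochberg adjustment over 15 V families). Of the families, 93.3% passed this test, 10 lower and 4 higher among productive joins, so passing it does not set Ighv8 apart. Without Ighv8-6 and Ighv8-7 the family's log2 ratio was -0.07 (adjusted p = 0.037 by limma). The Ighv2 family, at -1.35, and the Ighv5 family, at -1.11, lay further below 0, and the Ighv1 family was at 0.60.

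Within the family, 3 genes made most of the productive joins and others made most of the out-of-frame joins. Ighv8-8, Ighv8-12 and Ighv8-5 together held 95.2% of the family's productive joins and 40.5% of its out-of-frame joins. Ighv8-2 alone held 26.2% of the family's out-of-frame joins, the largest part of any member, and 2.13% of its productive joins. Among all V gene names, Ighv8-8 ranked 5 by productive joins and 18 by out-of-frame joins, and Ighv8-2 ranked 87 and 13.

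**Figure D1:**
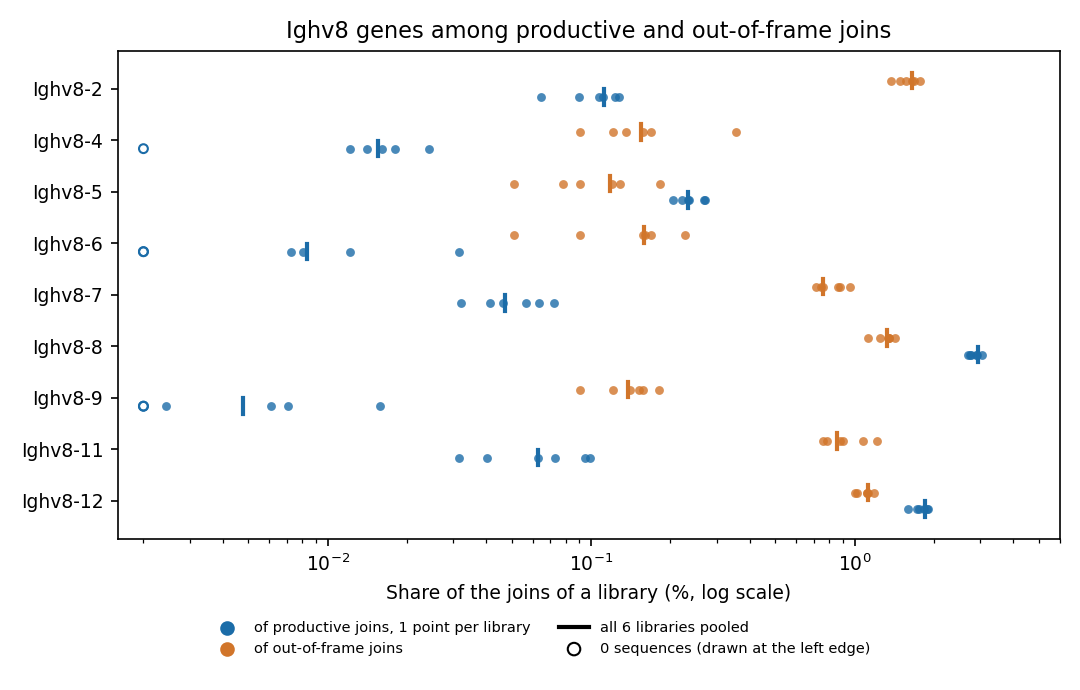
Share of each Ighv8 gene among the productive (blue) and the out-of-frame (orange) joins of a library, in percent on a log scale, for the 9 genes with at least 50 sequences; each point is 1 of 6 libraries, bars mark the pooled share, and open circles stand for 0 sequences. Ighv8-8, Ighv8-12 and Ighv8-5 lie higher among productive joins and the other 6 genes lie higher among out-of-frame joins. The classes do not overlap in any of the 9 genes. Overlap was not counted for other V genes, and by limma 95.6% of the 113 tested V genes differed between the classes.

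Ighv8-8 (chr12:115294066-115294362, annotated as a V segment and not as a pseudogene) had 5723 sequences, of which 4909 were productive and 674 out-of-frame. From the lowest to the highest input it took 2.68%, 2.74%, 2.90% and 3.03% of productive joins, and it took 2.75% in Q5_vent and 2.89% in Q5_Q5. Its share of out-of-frame joins ranged from 1.13% to 1.42%, with a median of 1.34%, so the classes did not overlap. The log2 ratio was 1.14 (SE 0.054, above 0 in 6 of 6 libraries, limma adjusted p = 9.7e-22), or 2.20-fold. In this test 113 V genes had at least 100 productive and out-of-frame sequences, and 95.6% of them passed at an adjusted p under 0.05, 57 higher (50.4%) and 51 lower (45.1%) among productive joins. The ratio of Ighv8-8 was the 21st highest of these genes, and the median gene stood at 0.20.

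Ighv8-12 (chr12:115647945-115648245, a V segment) followed with 3773 sequences. Its share of productive joins was 1.72%, 1.60%, 1.89% and 1.89% in the input series, in rising order of input, with 1.75% in Q5_vent and 1.83% in Q5_Q5. Its share of out-of-frame joins ran from 1.00% to 1.19%, below each of these. The log2 ratio was 0.71 (SE 0.059, above 0 in 6 of 6 libraries, limma adjusted p = 3.5e-14). Ighv8-5 (chr12:115067560-115067860, a V segment) was rarer, with 389 productive and 60 out-of-frame joins. Its share of productive joins lay between 0.205% and 0.270% and its share of out-of-frame joins between 0.0507% and 0.182%. Its log2 ratio of 0.90 (SE 0.18, above 0 in 6 of 6 libraries, limma adjusted p = 1.3e-05) was measured on few out-of-frame joins. Against in-frame joins with a stop in place of out-of-frame joins, a comparison added later, it was 0.34 (limma adjusted p = 0.32) and no longer passed, on 15 such joins. Ighv8-8 and Ighv8-12 passed that comparison too, at 1.06 and 0.71.

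Ighv8-2 (chr12:114462290-114462589) is annotated as a V segment and not as a pseudogene. It lies apart from the rest of the family, 561 kb closer to the D genes than Ighv8-4, the next member with sequences. It had 1161 sequences, of which 188 were productive and 843 out-of-frame. Its productive joins numbered 7, 8, 44 and 101 in rising order of input, with 18 in Q5_vent and 10 in Q5_Q5. As shares of productive joins these are 0.111%, 0.0643%, 0.107%, 0.123%, 0.127% and 0.0900%. Its out-of-frame joins numbered 27, 60, 220, 413, 74 and 49 in the same order, between 1.37% and 1.77% of out-of-frame joins. The highest productive share is thus below the lowest out-of-frame share. The log2 ratio was -3.85 (SE 0.11, below 0 in 6 of 6 libraries, limma adjusted p = 4.7e-29). With each library given equal weight the log2 ratio was -3.93 (limma adjusted p = 1.6e-07). The exact two-sided sign-flip permutation test, which shares no variance between genes, gave an unadjusted p of 0.031.

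Ighv8-8 and Ighv8-2 were set against each other within each library. The log2 ratio of Ighv8-8 minus that of Ighv8-2 was 4.46 in the library from 500 ng, then 5.80, 5.14 and 4.92 with rising input, and 4.72 for Q5_vent and 5.19 for Q5_Q5. Every library had Ighv8-8 above Ighv8-2. The mean difference was 5.04 ± 0.46 (SD, n = 6), or 32.9-fold (exact two-sided sign-flip permutation test, p = 0.031, the smallest that 6 libraries allow). Among out-of-frame joins alone the genes were close, with 674 joins of Ighv8-8 and 843 of Ighv8-2.

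**Figure D2:**
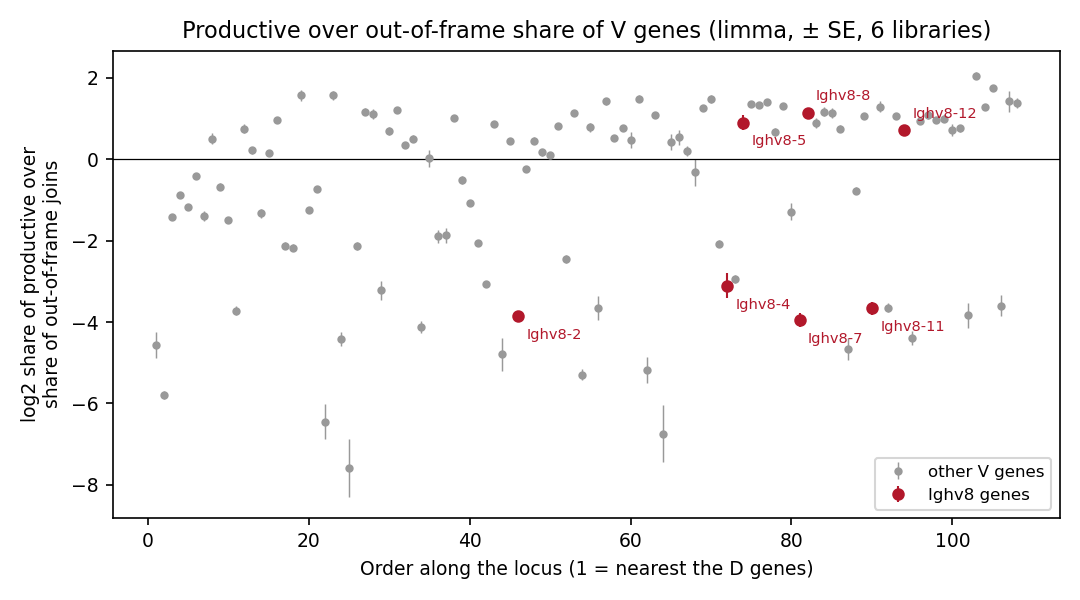
Log2 ratio of the productive over the out-of-frame share (limma estimate with its SE over 6 libraries) for the 108 of 113 tested V genes that the annotation names, in their order along the locus from the D genes outward; Ighv8 genes are red. Ighv8-8, Ighv8-5 and Ighv8-12 lie above 0 and Ighv8-2, Ighv8-4, Ighv8-7 and Ighv8-11 lie at -3.10 or below, interspersed with genes of other families.

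Genes next to an Ighv8 gene lay on both sides of 0. Ighv8-8 is next to Ighv1-58, which held 0.526% of productive and 0.275% of out-of-frame joins, and Ighv8-7 lies on its other side beyond a pseudogene without sequences. Ighv8-12 sits between Ighv1-69, with 1.84% of productive and 0.870% of out-of-frame joins, and Ighv1-70, with 0.0376% and 0.833%. The member closest to Ighv8-2 in its mean log2 ratio over the 6 libraries was Ighv8-7, and the member closest to Ighv8-8 was Ighv8-5.

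Ighv8-7 (chr12:115258139-115258432) is annotated as a V segment pseudogene. It had 568 sequences, 79 productive, 386 out-of-frame and 103 in frame with a stop. Its productive joins made up 0.0321% to 0.0720% of productive joins, and its out-of-frame joins 0.712% to 0.964% of out-of-frame joins. The log2 ratio was -3.95 (SE 0.16, below 0 in 6 of 6 libraries, limma adjusted p = 6.2e-24). Its germline sequence has a stop codon from base 94, shown here in capitals with the same stretch of Ighv8-8, from base 64 to base 126 of each V segment.
Ighv8-7: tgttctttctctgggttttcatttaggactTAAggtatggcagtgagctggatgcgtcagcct
Ighv8-8: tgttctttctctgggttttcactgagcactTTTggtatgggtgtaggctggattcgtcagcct
The V alignment covered this codon in 236 sequences. None of their 68 in-frame joins was marked productive, which the stop codon sets by definition. In the other 332 sequences the alignment started after the codon, and 79 of 114 in-frame joins were marked productive. All 79 productive calls of this gene therefore rest on reads that do not reach its stop codon.

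Ighv8-11 (chr12:115567149-115567449) is annotated as a V segment and keeps the TGT codon, with no stop codon in frame. It is 96.3% identical to Ighv8-8 over 301 bases, closer than Ighv8-12 at 94.7% and Ighv8-5 at 96.0%. The germline V segments of the pair are printed from base 1 to base 260, past their last difference, with the bases at which they differ in capitals.
Ighv8-8: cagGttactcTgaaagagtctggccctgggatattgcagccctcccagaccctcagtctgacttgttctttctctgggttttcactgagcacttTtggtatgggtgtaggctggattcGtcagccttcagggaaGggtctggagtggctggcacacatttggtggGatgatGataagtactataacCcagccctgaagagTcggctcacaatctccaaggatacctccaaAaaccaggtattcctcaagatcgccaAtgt
Ighv8-11: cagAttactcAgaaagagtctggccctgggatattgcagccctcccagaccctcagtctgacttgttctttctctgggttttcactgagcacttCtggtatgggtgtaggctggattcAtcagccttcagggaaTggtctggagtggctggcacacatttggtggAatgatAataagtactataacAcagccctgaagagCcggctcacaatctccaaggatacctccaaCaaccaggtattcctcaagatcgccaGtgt
The 11 substitutions are G4A, T11A, T95C, G119A, G135T, G166A, G172A, C187A, T201C, A231C and A257G, with the Ighv8-8 base first. They fall in 11 codons, and 10 of these encode another residue.

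Despite this likeness Ighv8-11 stood with Ighv8-2 and not with Ighv8-8. It had 611 sequences, 105 productive and 437 out-of-frame. Its share of productive joins was 0.0316% to 0.0989% and its share of out-of-frame joins 0.758% to 1.22%, a log2 ratio of -3.66 (SE 0.17, below 0 in 6 of 6 libraries, limma adjusted p = 2.2e-22). Most of its productive joins were sequences whose call names several V genes. There were 122 such sequences, 84 of them naming Ighv8-11 and Ighv8-8 together, with a median V alignment of 38 bases and none over 65. Of their 106 in-frame joins 101 were productive (95.3%, interval 89.4% to 98.0%), and they supplied 96.2% of the gene's productive joins.

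The 489 sequences whose call names Ighv8-11 alone held 4 productive joins, 421 out-of-frame joins and 64 in-frame joins with a stop. The 4 productive joins were 1 at 2.5 µg, 2 at 5 µg and 1 in Q5_vent, against 109, 189 and 37 out-of-frame joins. The remaining 3 libraries had 0 productive and 23, 39 and 24 out-of-frame joins. On single-gene calls the log2 ratio was -7.49 (SE 0.50, below 0 in 6 of 6 libraries, limma adjusted p = 4.2e-16), or 0.0056-fold, against 0.079-fold over all calls. It was -7.50 with V alignments of at least 100 bases. Of its in-frame single-gene joins 5.88% were productive (interval 2.31% to 14.2%), the third lowest among 112 V genes with at least 100 single-gene sequences. For Ighv8-8 the corresponding share was 97.2% (interval 96.7% to 97.6%).

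The other members were rare. Ighv8-4 (chr12:115024026-115024318, a V segment) had 26 productive and 79 out-of-frame joins and a log2 ratio of -3.10 (SE 0.31, below 0 in 6 of 6 libraries, limma adjusted p = 5.8e-12). Ighv8-6, with 14 productive and 81 out-of-frame joins, and Ighv8-9, with 8 and 70, passed only a minimum of 50 sequences, where their log2 ratios were -3.91 and -4.37. Ighv8-6 keeps the TGT codon, with no stop codon in frame. Ighv8-9 is the gene with TCT at the cysteine place, and the annotation has it as a V segment, not a pseudogene. Ighv8-13 had 13 sequences, Ighv8-8-1 had 6, Ighv8-10 had 4 and Ighv8-14 had 2, and the last 3 had no productive join. The germline sequences of Ighv8-10 and Ighv8-14, read from 4 and 1 mismatch-free sequences, have a TGA stop codon after the cysteine place, and that of Ighv8-14 has a TAG stop codon from base 37 as well. The annotation lists Ighv8-10 as a pseudogene and Ighv8-14 as a V segment. In all, 7 genes passed the minimum of 100, 3 higher and 4 lower among productive joins, and 229 sequences lay outside them.

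**Figure D3:**
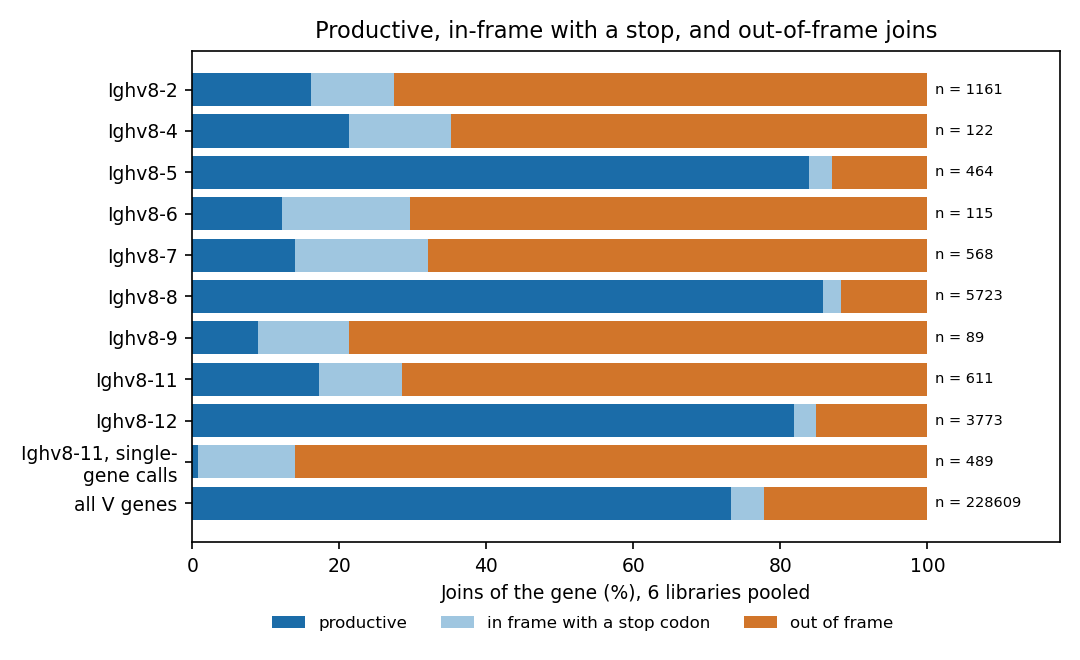
Joins of each Ighv8 gene that were productive, in frame with a stop codon, or out of frame, in percent of its sequences over the 6 pooled libraries, with the number of sequences at the right; all V genes are the lowest bar. Productive joins dominate in Ighv8-5, Ighv8-8 and Ighv8-12 and out-of-frame joins in the other 6 genes, and the productive part of Ighv8-11 shrinks to 4 of 489 sequences when its calls name 1 gene.

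The share of joins in frame, which rests on the same counts as the log2 ratios, separated the same genes. If the 3 reading frames were equally frequent, 33.3% of joins would be in frame. Ighv8-8 had 88.2% in frame (interval 87.4% to 89.0%), Ighv8-12 84.8% (83.7% to 85.9%) and Ighv8-5 87.1% (83.7% to 89.8%). Ighv8-2 had 27.4% (24.9% to 30.0%), Ighv8-7 32.0% (28.3% to 36.0%) and Ighv8-4 35.2% (27.3% to 44.1%). On single-gene calls Ighv8-11 had 13.9% (11.1% to 17.3%). The rarer Ighv8-6 had 29.6% (22.0% to 38.5%) and Ighv8-9 21.3% (14.1% to 31.0%). The intervals of Ighv8-7, Ighv8-4 and Ighv8-6 include 33.3%, and those of Ighv8-2, Ighv8-11 and Ighv8-9 lie below it. Over the 115 V genes with at least 100 sequences the share ran from 16.2% to 93.4%, with a median of 79.9%.

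Most in-frame joins of Ighv8-2 were open reading frames, though a smaller share than in the median V gene. That median was 94.9% over the 115 V genes with at least 100 sequences, and Ighv8-4 was at 60.5%. Of the 318 in-frame joins of Ighv8-2, 188 were productive (59.1%, interval 53.6% to 64.4%). In all 130 others the stop lay in the junction rather than in the V segment. Stops made up 13.4% of the unproductive joins of Ighv8-2 (interval 11.4% to 15.6%), against 16.8% over all V genes. In Ighv8-8 the stop lay in the junction in 127 of 140 joins and in the V segment in 13.

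J partners were compared next. The J gene joined to a V segment contributes the end of CDR3 and the last framework. Among productive joins, Ighv8 joins held more Ighj1 and less Ighj3 than joins of the other V genes. Ighj1 was found in 23.1%, 23.6%, 24.0% and 23.1% of productive Ighv8 joins with rising input, and in 24.2% and 25.8% for Q5_vent and Q5_Q5. In the other V genes it was found in 18.2% to 20.0%, below every Ighv8 value. The log2 odds ratio was 0.35 (SE 0.036, above 0 in 6 of 6 libraries, limma adjusted p = 3.9e-19). Ighj3 was found in 16.0% to 20.4% of productive Ighv8 joins and 21.6% to 23.9% of those of the other V genes, again without overlap, a log2 odds ratio of -0.31 (SE 0.038, below 0 in 6 of 6 libraries, limma adjusted p = 5.2e-14). Over 15 families and 4 J genes, 86.7% of such comparisons passed.

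The other J genes differed less. Ighj4 was lower, at -0.12 (SE 0.035, below 0 in 6 of 6 libraries, limma adjusted p = 0.00053). Ighj2 was higher at 0.09 (SE 0.034, above 0 in 4 of 6 libraries, limma adjusted p = 0.0080), and without the 5 µg library it was 0.06 and did not pass (limma adjusted p = 0.24).

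None of the 4 J genes passed among out-of-frame Ighv8 joins, where 18.3% of the comparisons over all families did. Ighj1 was found in 15.6% of out-of-frame Ighv8 joins and 16.3% of those of other V genes, a log2 odds ratio of -0.06 (SE 0.063, limma adjusted p = 0.63). The productive log2 odds ratio minus the out-of-frame one was 0.42 for Ighj1 (SE 0.071, above 0 in 6 of 6 libraries, limma adjusted p = 8.4e-07) and -0.27 for Ighj3 (below 0 in 6 of 6 libraries, limma adjusted p = 0.00013). For Ighj4 it was -0.16 (below 0 in 4 of 6 libraries, limma adjusted p = 0.037), and for Ighj2 0.02 (adjusted p = 0.74). Of these differences 73.3% passed over all families.

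The members did not share 1 pattern of J partners. Among productive joins Ighv8-12 had Ighj1 at a log2 odds ratio of 0.60 and Ighj3 at -0.73, each in the same direction in 6 of 6 libraries (limma adjusted p = 2.0e-18 and 7.0e-19, over all V genes). Its Ighj4 was higher at 0.15 (4 of 6 libraries, limma adjusted p = 0.015), against the lower Ighj4 of the family. Ighj4 was also higher in Ighv8-11, at 0.83 (5 of 6 libraries, limma adjusted p = 0.0072), on productive joins that are mostly several-gene calls. In Ighv8-12, Ighj3 made up 15.3% of productive joins (interval 14.1% to 16.7%). Ighv8-5 had Ighj1 at 0.72 (5 of 6 libraries, limma adjusted p = 3.7e-05) and Ighj3 also at 0.72, in 32.6% of its productive joins (interval 28.2% to 37.5%), and Ighj4 at -0.94, in 16.5% (limma adjusted p = 2.0e-05 and 7.6e-06). Its Ighj2 was lower at -0.41 (4 of 6 libraries, limma adjusted p = 0.037). Ighv8-8 had smaller differences, with Ighj2 at 0.26, Ighj1 at 0.21, Ighj3 at -0.23 and Ighj4 at -0.24, each in 6 of 6 libraries (the largest limma adjusted p was 0.00013). The 188 productive joins of Ighv8-2 held Ighj3 in 36.2% (interval 29.6% to 43.3%), a log2 odds ratio of 0.96 (5 of 6 libraries, limma adjusted p = 5.7e-05), and its Ighj4 was lower at -0.63 (4 of 6 libraries, limma adjusted p = 0.043). In this fit 52.6% of all comparisons of a V gene with a J gene passed among productive joins and 3.68% among out-of-frame joins. No tested Ighv8 gene was among the latter.

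**Figure D4:**
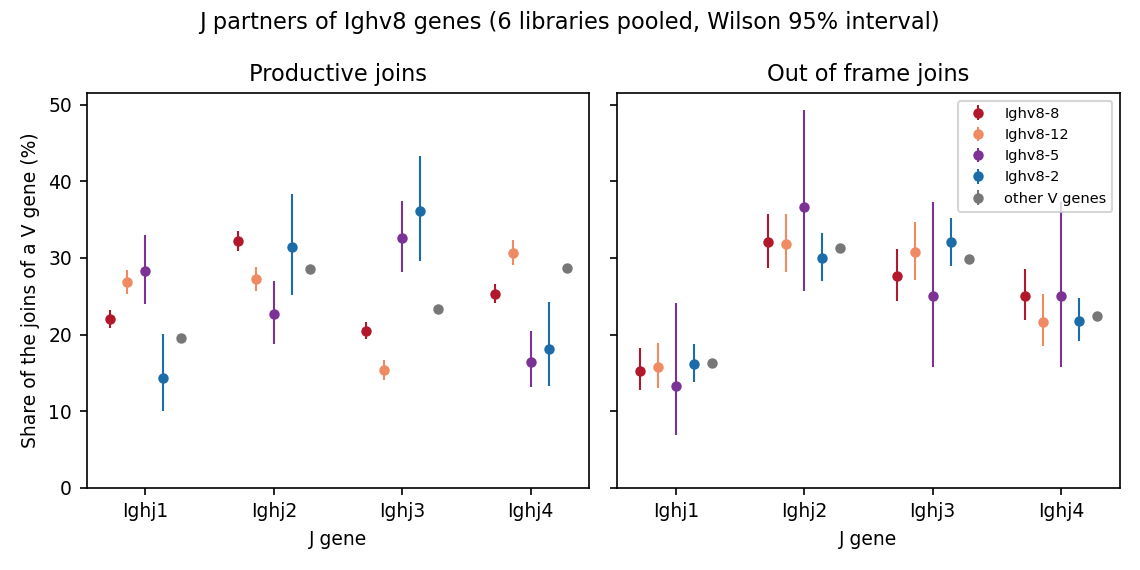
Share of each J gene in the productive (left) and out-of-frame (right) joins of 4 Ighv8 genes and of the other V genes, in percent over the 6 pooled libraries, with Wilson 95% intervals. Among productive joins the 4 genes spread apart, from 15.3% Ighj3 in Ighv8-12 to 36.2% in Ighv8-2, while among out-of-frame joins their intervals overlap those of each other at every J gene.

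Over the family as a whole, D partners were close to those of other V genes. Ighd1 was called in 41.0% and Ighd2 in 38.8% of productive Ighv8 joins, against 39.9% and 39.6% in the other V genes, and neither passed. With sequences of at least 5 reads both passed, Ighd1 higher at a log2 odds ratio of 0.10 (limma adjusted p = 0.0066) and Ighd2 lower at -0.087 (limma adjusted p = 0.021). Ighd1 also passed without the 1 µg library, at 0.076 (limma adjusted p = 0.039), and without Q5_vent, at 0.077 (limma adjusted p = 0.045). Ighd3 was called in 3.21%, 6.27%, 5.38% and 5.12% of productive Ighv8 joins with rising input, and in 5.56% and 5.51% for Q5_vent and Q5_Q5. In the other V genes it was called in 6.22% to 6.83%, so the groups overlap at 1 µg. The log2 odds ratio was -0.32 (SE 0.067, below 0 in 6 of 6 libraries, limma adjusted p = 1.1e-05), where 48.6% of the comparisons of families with D classes passed. With each library given equal weight the log2 odds ratio was -0.35 and its limma adjusted p was 0.082, so the call ended while the value did not shrink (exact two-sided sign-flip permutation test, unadjusted p = 0.031). Pooled, the Ighd3 share was 5.19% in Ighv8-8, 5.37% in Ighv8-12 and 4.11% in Ighv8-5. Other D classes differed between members, which was not tested by gene. Pooled productive Ighd1 was 43.8% in Ighv8-8 (interval 42.4% to 45.2%) and 37.0% in Ighv8-12 (35.3% to 38.7%), on either side of the other V genes. Ighd4 was 6.50% in Ighv8-8, 8.64% in Ighv8-12 and 12.3% in Ighv8-5, against 6.91% in the other V genes. No D call made up 5.46%, 8.28% and 9.51% in the same order, against 6.04%.

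Among out-of-frame joins Ighd3 was called in 4.22% of Ighv8 and 4.29% of other joins, a log2 odds ratio of 0.02. The productive log2 odds ratio minus this one was -0.35 (below 0 in 4 of 6 libraries, limma adjusted p = 0.040), where 29.5% of comparisons passed. Among out-of-frame joins, where 36.2% of comparisons passed, Ighd1 was higher at 0.13 (4 of 6 libraries, limma adjusted p = 0.023). Ighd2 was lower at -0.17 (4 of 6 libraries, limma adjusted p = 0.011). Ighd5 was higher at 0.71 on 17 joins (5 of 6 libraries, limma adjusted p = 0.049). Each of these 3 lost its call when the 5 µg or the 2.5 µg library was left out, as set out in the closing section.

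Productive Ighv8 joins had longer CDR3s than those of other V genes. The mean over libraries was 39.9 ± 0.18 bases (SD, n = 6; range 39.6 to 40.1), against 37.8 ± 0.062 (range 37.7 to 37.9), with no overlap. The difference was 2.17 bases (SE 0.074, above 0 in 6 of 6 libraries, limma adjusted p = 7.6e-19), where 86.7% of 15 families passed. Among out-of-frame joins the difference was 1.21 bases (6 of 6 libraries, limma adjusted p = 1.8e-08), with 80.0% of families passing. Ighv8-2, whose deposited CDR3 starts 1 codon later, makes up 26.2% of these joins and 2.13% of the productive ones. With that codon added to its CDR3s, in a comparison added later, the difference was 2.00 bases among out-of-frame joins (limma adjusted p = 2.2e-11) and 2.23 among productive joins (limma adjusted p = 4.6e-20), each in 6 of 6 libraries.

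By gene, productive CDR3s were 2.58 bases longer than those of all other V genes in Ighv8-8 (SE 0.082, 6 of 6 libraries, limma adjusted p = 2.4e-12) and 1.48 bases longer in Ighv8-12 (SE 0.11, 6 of 6 libraries, limma adjusted p = 5.7e-08), in a fit where 58.3% of 96 genes passed. Ighv8-5, at 0.15 bases (SE 0.30), and Ighv8-2, at 1.16 bases (SE 0.61), did not pass, with 3 of 6 libraries above 0 in each. The missed call of Ighv8-2 depends on the CDR3 start: with the codon added, its excess was 4.16 bases (SE 0.61, above 0 in 6 of 6 libraries, limma adjusted p = 5.7e-05). Ighv8-11 had an excess of 8.05 bases (SE 0.51), measured on 105 productive joins of which 101 are several-gene calls with short V alignments, and its 4 productive single-gene joins had a mean of 42.0 bases. In Ighv8-8, 15.8% of productive joins had a CDR3 of 14 codons and 13.0% one of 15, against 13.2% and 9.40% in the other V genes. CDR3s of 10 codons made up 6.13% of Ighv8-8 joins, 7.28% of Ighv8-12 joins and 11.1% of joins of other V genes.

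**Figure D5:**
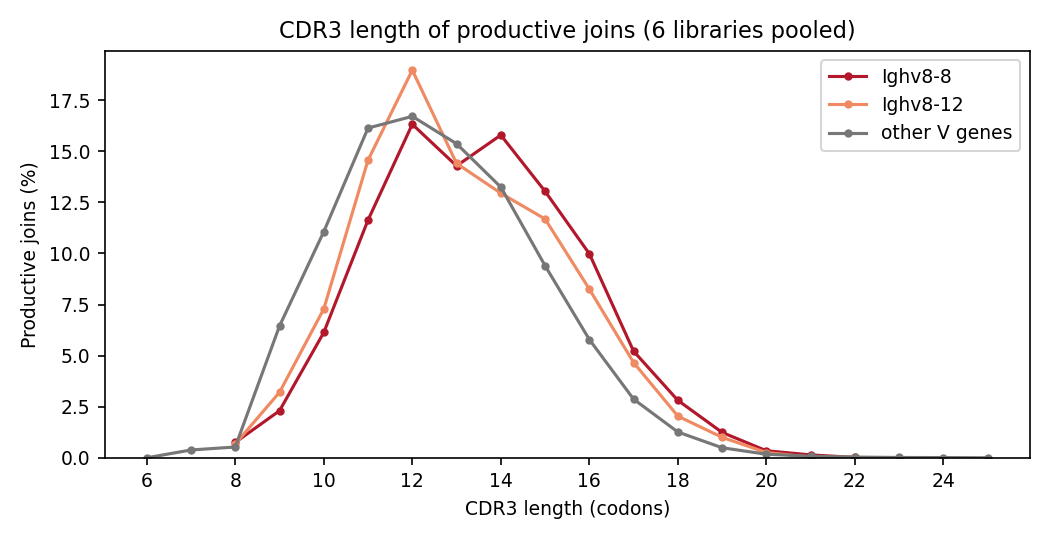
Distribution of CDR3 length, in codons, over productive joins of Ighv8-8, Ighv8-12 and all V genes outside the family, in percent of each over the 6 pooled libraries. The Ighv8-8 curve lies above that of the other V genes at 14 and 15 codons (15.8% against 13.2%, and 13.0% against 9.40%) and below it at 10 codons.

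In productive joins the longer CDR3 did not come with more bases between V and D. Bases between D and J were not compared. Productive Ighv8 joins had a mean of 4.09 bases between the aligned V and D segments, against 4.63 in the other V genes. The difference was -0.54 bases (SE 0.033, below 0 in 6 of 6 libraries, limma adjusted p = 9.0e-18), where 73.3% of families passed. Out-of-frame Ighv8 joins had 0.23 bases more (SE 0.064, 6 of 6 libraries, limma adjusted p = 0.0010, where 86.7% of families passed). This turned to -0.39 (limma adjusted p = 3.9e-07) without Ighv8-6 and Ighv8-7. The references of those genes end at bases 297 and 294, short of the 301 of Ighv8-8, and their out-of-frame joins had 6.79 and 8.81 bases between V and D, against 4.20 in Ighv8-8.

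The V end itself was read as the last germline base that aligned. It was the last base of the reference in 39.2% of productive and 40.5% of out-of-frame Ighv8-8 joins. For Ighv8-12 these shares were 34.2% and 40.6%, and for Ighv8-2, whose segment ends in other bases, 70.2% and 67.7%. In the V genes outside the family they were 67.1% and 50.2%. No test was made on these shares, since a base added at the junction can match the germline by chance.

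The amount of DNA and the polymerases were compared with 1 library on each side, so there is no replicate check. With rising input Ighv8 sequences made up 5.35%, 5.15%, 5.55% and 5.63% of a library. The ratio of 5 µg over 500 ng was 1.05 (Katz interval 0.960 to 1.15), and the interval included 1 for each of the 6 members that reached 100 sequences in these libraries together. It excluded 1 for 3.74% of V genes. Ighv8-8 had a ratio of 1.11 (interval 0.966 to 1.28), Ighv8-12 of 1.06 (0.892 to 1.26), Ighv8-2 of 1.09 (0.794 to 1.49) and Ighv8-11 of 0.707 (0.491 to 1.02). The share was 5.42% in Q5_vent and 5.43% in Q5_Q5, a ratio of Q5_Q5 over Q5_vent of 1.00 (interval 0.917 to 1.10). None of 3 members differed there, where 3.57% of V genes did. Differences within these intervals were not detectable at this depth.

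Ighv8 clones rarely recurred. Taking sequences alike in V gene, J gene and CDR3 bases as 1 clone gave 12457 Ighv8 clones, of which 98.8% were seen once. In 2 or more libraries 62 were found, or 0.498% (interval 0.388% to 0.637%), against 0.798% (0.761% to 0.837%) of clones of other V genes. Of the 62, Ighv8-8 made 30, all productive, and Ighv8-12 made 21, of which 19 were productive. The 3 of Ighv8-2, the 3 of Ighv8-7 and the 3 of Ighv8-11 were not productive. The most frequent Ighv8 clone, an Ighv8-8 join to Ighj1 with a CDR3 of 42 bases, was seen 9 times in 3 libraries, and no Ighv8 clone was found in all 6, where 15 of 210380 clones of other V genes were. Whether libraries share cells is not stated, so a shared clone and a join made more than once cannot be told apart.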

How the data were processed

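Per the submitters' processing notes, Trim Galore 0.4.4, Bowtie2 2.3.2 and mm10 (GRCm38) were used; their roles and settings are not given in the material read here. CDR3 columns are named for IgBLAST, a V, D and J gene caller, per the file headers. Each deposited row, per the file headers, is a sequence with V, D and J calls, a CDR3, frame and productive flags, lengths in bases and V identity as a fraction from 0 to 1. That fraction was used to pick mismatch-free germline sequences. A number at the end of each sequence name, 3 or more throughout, is taken as reads per sequence. Row numbers have gaps, with 56.7% to 64.1% of them present per library; what removed the others is not known here and could move any share or in-frame percentage.

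Sequences were counted by first V gene. Calls naming several V genes were 1.42% of Ighv8 sequences. For each library, log2 ratios (0.5 added to each count) or differences in mean length were computed and tested against 0 with limma 3.58.1 in R 4.3.3, weighted by inverse counting variance, for genes or families with at least 100 sequences, with Benjamini-Hochberg adjustment over the whole table. Fits were also run on simulated data, drawn from the same V gene proportions in each library. Those data hold no spread between libraries beyond counting error, so they cannot show how the fits handle such spread. Single ratios between libraries carry Katz intervals. Depth sets the precision: 3 counts are 0.00364% of productive joins at 5 µg and 0.0474% at 500 ng. Every Ighv8 gene is accounted for, and those with at least 100 sequences are described. Members and lists were chosen with earlier results of these data known. Alternatives were 1 count per clone, single-gene calls, at least 5 reads, minimums of 50 and 200, 1 added to each count, equal weights, centring, all non-productive joins, an exact sign-flip permutation test, the Cochran-Mantel-Haenszel test and leaving out each library. Chosen after seeing the data were V alignments of at least 100 bases, leaving out Ighv8-6 and Ighv8-7, comparison with in-frame joins with a stop, J partners by gene, the productive minus out-of-frame difference, CDR3 length of out-of-frame joins and 1 codon added to the CDR3 of Ighv8-2.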

Additional observations from a re-analysis of the deposited data

How the results depend on the processing

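Of 46 results, 26 kept their direction and their side of the threshold under every setting run. Among these were the family ratio, the ratios of Ighv8-8, Ighv8-12, Ighv8-2, Ighv8-7, Ighv8-4 and Ighv8-11 in the settings where they could be fitted, productive Ighj1, Ighj3 and Ighj4, and the family's productive CDR3 length and bases between V and D. The cause was not tested for any change below unless stated. Without 1 library the difference of Ighv8-8 from Ighv8-2 ran from 4.89 to 5.16, with an exact p of 0.0625, the smallest that 5 libraries allow. In the main fit productive Ighd4 had a log2 odds ratio of 0.13 and lay just short of the threshold (limma adjusted p = 0.051). No D call, at 0.12, and Ighd6, at 0.26, did not pass either (limma adjusted p = 0.076 and 0.23). Out-of-frame Ighd4, at 0.17, and no D call, at 0.20, also did not pass (limma adjusted p = 0.32 and 0.096). Leaving out 1 library gave log2 odds ratios of 0.0619 to 0.111 for productive Ighj2, 0.0516 to 0.0772 for Ighd1, 0.0589 to 0.227 for Ighd4 and 0.0884 to 0.142 for no D call. Among out-of-frame joins it gave -0.0638 to 0.0150 for Ighj3, -0.0851 to 0.104 for Ighj4, 0.12 to 0.14 for Ighd1, -0.18 to -0.15 for Ighd2, -0.0476 to 0.0655 for Ighd3 and 0.52 to 0.95 for Ighd5. The CDR3 difference of Ighv8-5 ran from -0.0208 to 0.327 bases. Ighd1 lost its out-of-frame call without the 2.5 µg (0.12) or the 5 µg library (0.13), Ighd2 without the same libraries (-0.15 and -0.16), and Ighd5 without any library but Q5_vent. With at least 5 reads, productive Ighj2 was 0.0779, Ighd1 0.10 and Ighd2 -0.0874, where both D genes gained a call, and out-of-frame Ighj4 was -0.0010 and Ighd1 0.10. With equal weights, in limma and in the exact sign-flip permutation test, productive Ighj2 was 0.0878 and no D call -0.0060, and out-of-frame Ighj3 was 0.0243, Ighd1 0.0834, Ighd2 -0.10, Ighd3 -0.11, Ighd4 -0.38, Ighd5 0.53 and no D call 0.32. Equal weights gave -0.35 for productive Ighd3, which lost its limma call, and -0.0413 bases for the CDR3 of Ighv8-5. Single-gene calls gave 0.13 for productive Ighd4 and 0.64 for out-of-frame Ighd5, and 1 count per clone gave 0.14 for Ighd4. V alignments of at least 100 bases gave 0.0729 for productive Ighj2, 0.17 for Ighd4, 0.46 for Ighd6 and 0.19 for no D call. Without Ighv8-6 and Ighv8-7, no D call was 0.14 in productive and 0.41 in out-of-frame joins, out-of-frame Ighd1 was 0.11, Ighd3 was -0.11, and bases between V and D were -0.39. Centring on the median gene gave 52 genes higher and 51 lower. No paired analysis was possible because each group has 1 library, which concerns comparisons between groups; joins of different classes or genes were compared within each library throughout.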
